A study of Mus musculus with 3 samples.

Results

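RANK, its ligand RANKL (RL), the decoy receptor osteoprotegerin and the further RANKL receptor Lgr4 were followed through the transcripts of 4 genes, Tnfrsf11a, Tnfsf11, Tnfrsf11b and Lgr4. The genes were chosen by name, as the ligand of this pathway and the receptors that bind it, among the 21154 gene symbols with a probe on the array. All 4 were found, each with 1 probe and 1 spot per array, so no other probe of a gene could be set beside it. The study asked how RL changes gene expression in mammary tumor cells. Primary cultures came from tumors of 3 mice with the MMTV-PyMT transgene, in which a mouse mammary tumor virus promoter drives the polyoma middle T oncogene in the mammary epithelium. Each mouse, called tumor 1, 2 or 3, gave 1 control culture and 1 culture with RL for 24 h, and the RNA of both was hybridized on 1 Agilent array with opposite dyes. The control lay in Cy5 in tumors 1 and 3 and in Cy3 in tumor 2. All cultures grew in DMEM F12 with 5% FBS, 1% P/S, cholera toxin, insulin and EGF, and the study's methods describe them as acini on Matrigel. The methods take the cells of such acini from RANK+/+ or RANK−/− tumor transplants. The sample titles name neither a RANK genotype nor a transplant. The labels give the RL dose as 1000 ug/ml and the methods as 1 µg/mL. The labels used here name neither the strain nor the age of the mice.

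RANKL is a membrane-bound cytokine of the TNF family that proteases can release from the cell surface. It activates RANK, whose TRAF adaptors carry the signal to NF-κB, to MAP kinases and to NFATc1. Osteoprotegerin is a secreted receptor without a membrane anchor that binds RANKL and keeps it from RANK. Lgr4 is a receptor for R-spondins in WNT signaling that can also bind RANKL. In the mammary gland, progesterone induces RANKL in hormone-sensing luminal cells, and RANKL then acts on neighboring cells that carry RANK. The system is best known for the formation of osteoclasts in bone.

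Levels are given as normalized log2 intensities of 1 probe and are compared only within a gene. Where processed intensities of a marker list are summed, the brightest spot is named to show which probe leads the sum, and spots of different probes do not rank transcripts. The normalized log2 levels, unlike the processed intensities, contain an added offset of 50 intensity units, which compresses the differences of dim probes. Between 55.6% and 57.2% of the spots were well above background in a channel, and with 3 arrays the precision of each value is limited by their number. Of the 4 genes, all passed the filter of a probe well above background in all 3 control or all 3 RL channels, Tnfsf11 only through its RL channels. As each tumor was hybridized once, a difference in level between tumors cannot be told apart from a difference between arrays. In these bulk samples, fewer cells of a type and less RNA per cell cannot be told apart either. Tumor 2 was the only one with RL in Cy5, so its dye order and the tumor itself cannot be told apart.

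None of the 4 genes passed the adjusted p of 0.05 with RL. The ligand lay far higher in tumor 2 than in the other tumors. Its mean levels in tumors 1 and 3, 6.16 and 6.35, differed by less than the cultures of tumor 3 did, with 6.24 and 6.45. The levels of the decoy receptor differed between tumors by more than between the cultures of a tumor. By limma, 0 of the 4 genes were called higher and 0 lower, where 0.0046% of the 21743 genes and transcripts tested were higher and 0.023% lower. At an unadjusted p under 0.05 the count was also 0 of the 4 genes, where 785 of all genes were higher and 772 lower. With a dye term in limma it was 0 of 4, where 0.455% of all genes were higher and 0.598% lower. By rank product it was 0 of 4, where 0.166% of all genes were higher and 0.235% lower. Only Lgr4 had a ratio of the same sign in all 3 tumors, and 13.3% of all genes tested were lower in all 3. With 3 tumors from separate mice, such counts near the background say nothing particular about these genes.

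**Figure D1:**
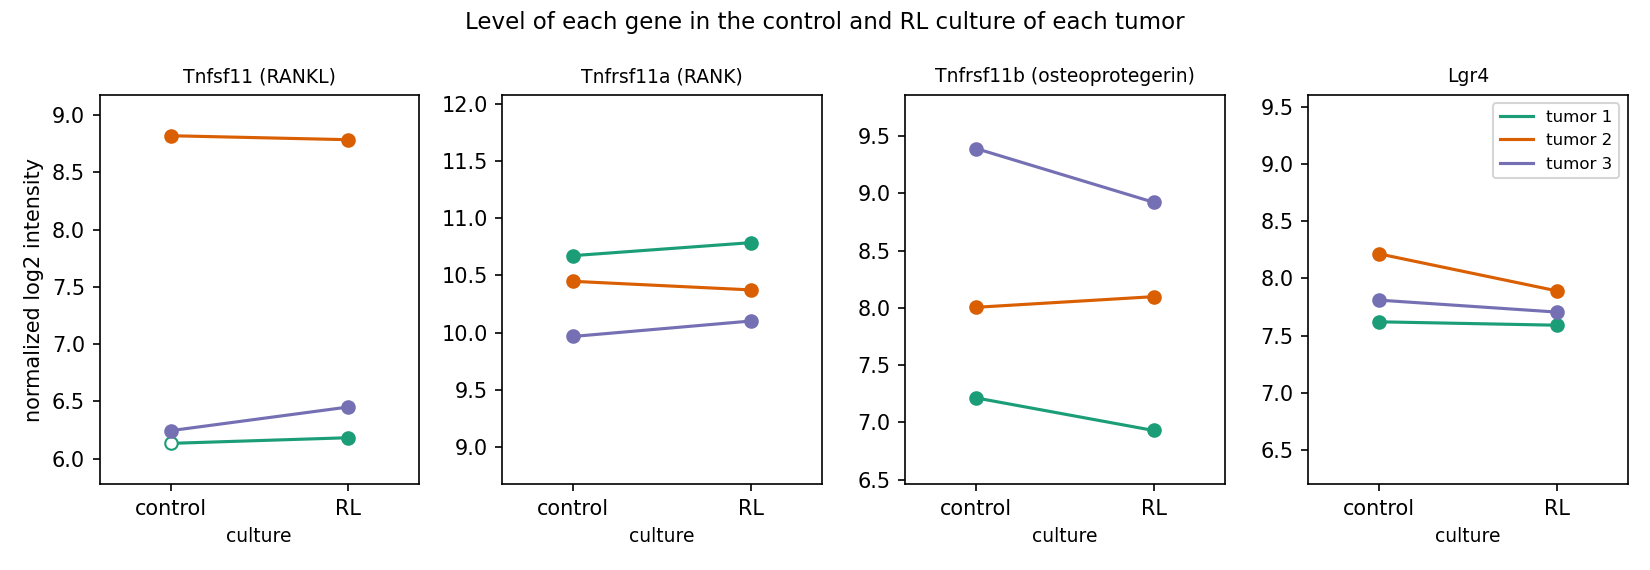
Normalized log2 intensity of each gene (y axis, each panel spanning the same log2 range) in the control and RL culture (x axis) of tumors 1, 2 and 3, with a line joining the cultures of a tumor and an open circle where the spot was not well above background. Tnfsf11 lay at 8.82 and 8.79 in tumor 2 and between 6.13 and 6.45 in the other tumors, whose levels lie close together. The change along each line is small beside the distance of tumor 2 from the others for Tnfsf11. For Tnfrsf11b it is smaller than the distances between the tumors.

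The ligand transcript was high in tumor 2 and near the background in tumors 1 and 3. Tnfsf11 had a log2 level of 6.13 in the control and 6.18 in the RL culture of tumor 1, 8.82 and 8.79 in those of tumor 2, and 6.24 and 6.45 in those of tumor 3. Both cultures of tumor 2 were thus above the 4 cultures of the other tumors, whereas control and RL cultures overlapped. In the background-subtracted intensities of the scanner software, Tnfsf11 was 5.69 in the control and 8.18 in the RL culture of tumor 1, 256 and 247 in tumor 2, and 10.75 and 18.88 in tumor 3. The control spot of tumor 1 was not well above background, and the dimmest spot that was so in that channel had an intensity of 7.95. RL was added as a protein, so the probe reads the transcript made by the cells themselves.

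The log2 level of Tnfsf11 spanned 2.65 between the tumors, taking the mean of both cultures of each. This size depends on the offset and on spots near the background, with 3.71 at an offset of 10 and 5.21 in the processed intensities, so it is no exact difference. Tumor 2 was highest in each of the 4 alternatives that change the levels. The median gene had a range of 0.27. With RL, the log2 ratio of Tnfsf11 over control was 0.05, −0.03 and 0.21 in tumors 1, 2 and 3. The mean was 0.07 (SE 0.08, n = 3 tumors, higher in 2 of 3, adjusted p = 0.896 from limma), with a 95% interval from −0.10 to 0.24. Repeated spots of probes of like brightness had a median SD of 0.08, 0.07 and 0.09 in log2 ratio on the 3 arrays, so the values of tumors 1 and 2 lay within the noise of a single spot. From the processed intensities the mean was 0.43 (SE 0.17, adjusted p = 0.648 from limma), and the adjusted p was at least 0.447 in each alternative.

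**Figure D2:**
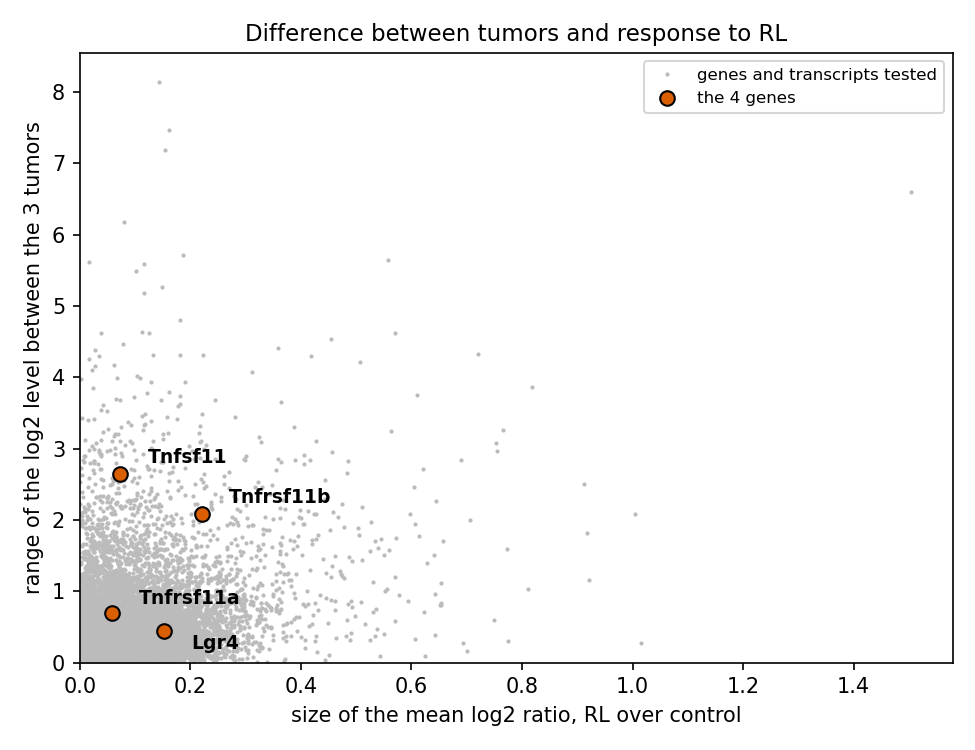
Range of the log2 level between the 3 tumors (y axis) against the size of the mean log2 ratio of RL over control (x axis), for all genes and transcripts tested (grey points) and for the 4 genes (orange points). Tnfsf11 and Tnfrsf11b have ranges of 2.65 (in part near background) and 2.09 beside changes of 0.07 and −0.22. Tnfrsf11a and Lgr4 have ranges of 0.70 and 0.45 beside changes of 0.06 and −0.15.

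The marker genes of other cell types were set beside the level of Tnfsf11, since T cells and hormone-sensing cells can express RANKL. Of 7 T cell markers, 4 (Cd3d, Cd3g, Cd2 and Cd8a) were not well above background in any of the 6 channels, while Cd3e, Cd4 and Lck were so in all 6. The summed processed intensity of the T cell list was 1348, 1166 and 1417 in the control cultures of tumors 1, 2 and 3 and 1400, 1190 and 1421 with RL, with Cd4 the brightest spot except in the RL culture of tumor 3, where it was Lck. The sum was lowest in tumor 2, and the 3 markers well above background had no common order of the tumors. Their log2 levels in tumors 1, 2 and 3 were 9.11, 9.14 and 9.01 for Cd3e, 10.06, 9.68 and 9.74 for Cd4, and 9.10, 9.16 and 9.59 for Lck. The processed intensities of Cd3d, Cd3g, Cd2 and Cd8a in tumor 2 lay between 1.51 and 3.796. The part of T cells in the level of Tnfsf11 was not tested. None of the 4 B cell markers was well above background in any channel, and their summed intensities lay between 7.49 and 19.6.

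Among the 6 hormone-sensing luminal markers, all but Pgr were well above background in all 6 channels. Pgr, the progesterone receptor, was so in 1 of 3 control and 1 of 3 RL channels, and its processed intensity in tumor 2 was 1.48 and 1.51. Cited1 and Foxa1, chosen after their values had been seen, were lowest in tumor 2, with mean log2 levels of 9.09, 7.42 and 8.28 for Cited1 and 8.58, 7.43 and 8.74 for Foxa1 in tumors 1, 2 and 3. Areg had 10.93, 11.04 and 11.04, and Esr1 had 6.70, 6.71 and 6.80, so both were lowest in tumor 1. Tumors 1 and 2 were hardly apart in Esr1, and its processed intensities gave them no fixed order. These were 38.0 and 26.3 in the control cultures of tumors 1 and 2, and 25.3 and 33.9 with RL. Prlr was lowest in tumor 3, with 11.89, 11.71 and 11.49. Pgr, near the background, had 6.25, 5.87 and 6.18. The markers of this list thus had no common order of the tumors. Over the list, the median deviation from each gene's mean level was 0.17, −0.13 and 0.05 on the log2 scale in tumors 1, 2 and 3, lowest in tumor 2. The summed intensity of this list was 4766, 4033 and 4407 in the control cultures and 5363, 4196 and 4547 with RL, led by Prlr. The Prlr spot made up most of each sum, and the part of these cells in the level of Tnfsf11 was not tested.

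The basal markers Krt5, Krt14, Trp63 and Acta2 were higher in tumors 2 and 3 than in tumor 1, whereas Oxtr was highest in tumor 1, with log2 levels of 9.15, 8.26 and 7.34 in tumors 1, 2 and 3. Over the list, the median deviation from each gene's mean level was −0.72, 0.26 and 0.40 on the log2 scale in tumors 1, 2 and 3. Of the 6 genes, 5 were well above background in all channels, Myh11 being the exception, and the summed intensity was 20886, 44872 and 63561 in the control cultures and 20936, 39393 and 51496 with RL, led by Krt14. Their part in the level of Tnfsf11 was not tested.

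Genes with tumor levels most like those of Tnfsf11 were sought after its values had been seen, by the Euclidean distance of the 3 mean log2 levels after subtraction of each gene's mean. The nearest of the 21720 genes compared were Lifr, Bpifb5 and Camp, at distances of 0.205, 0.237 and 0.298, and none lay within 0.1. These distances include the level of tumor 1, where the control spot of Tnfsf11 was not well above background. Lifr encodes a receptor of LIF, and Camp an antimicrobial peptide. The log2 level of Lifr was 7.62, 10.01 and 7.80 in tumors 1, 2 and 3. In the ratio of RL over control, Zfp53, Ufm1 and Msl1 were nearest to Tnfsf11, and 773 genes lay within 0.1, as is the case for ratios near 0.

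The receptor transcript was well above background in each culture. Tnfrsf11a encodes RANK, and it had a log2 level of 10.67 in the control and 10.79 in the RL culture of tumor 1, 10.45 and 10.37 in tumor 2, and 9.97 and 10.10 in tumor 3. Tumor 1 was highest and tumor 3 lowest in both conditions, so the order of the tumors was the same with and without RL. The range between tumors was 0.70, and 13.9% of genes had one at least as wide, so Tnfrsf11a varied more between tumors than the median gene. The control cultures had a mean of 10.36 ± 0.36 (SD, n = 3) and the RL cultures of 10.42 ± 0.34.

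With RL, the log2 ratio of Tnfrsf11a over control was 0.11, −0.08 and 0.13 in tumors 1, 2 and 3. It was above 0 in the tumors with RL in Cy3 and below 0 in tumor 2, which had RL in Cy5. The mean was 0.06 (SE 0.07, adjusted p = 0.909 from limma, 95% interval from −0.11 to 0.23), and 51.9% of all genes had a mean change at least as large. A fit with a dye term, which gives tumor 2 the same weight as tumors 1 and 3 together, gave 0.02 (SE 0.07). As tumor 2 alone has its dye order, the dye term also takes up whatever else is particular to that tumor. Centering each array on its median instead of loess gave −0.10, but all genes together then had a median of −0.11, and Tnfrsf11a was 0.01 above that median. The genes with the most similar ratios were Nudt19, Gm11747 and Cul2, with 1060 genes within a distance of 0.1.

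**Figure D3:**
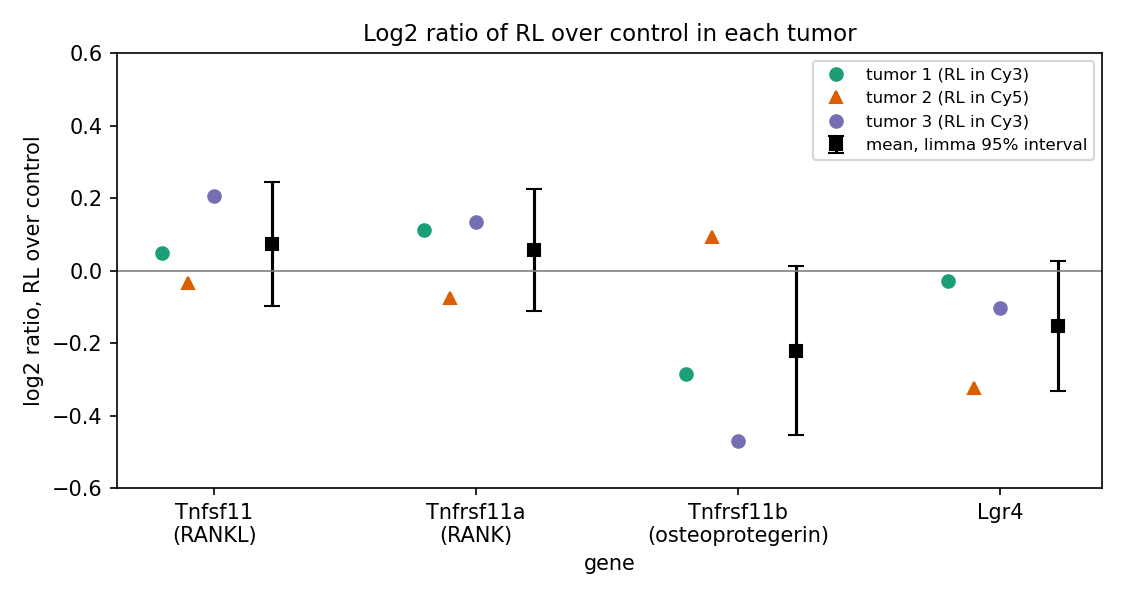
Log2 ratio of RL over control (y axis) of the 4 genes (x axis) in tumors 1 and 3 with RL in Cy3 (circles) and in tumor 2 with RL in Cy5 (triangles), with the mean and its 95% interval from limma (squares and bars). Each interval includes 0, and for Tnfsf11, Tnfrsf11a and Tnfrsf11b the value of tumor 2 lies on the other side of 0 from those of tumors 1 and 3.

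The decoy receptor transcript differed between tumors by more than between the cultures of a tumor. Tnfrsf11b encodes osteoprotegerin, and it had a log2 level of 7.21 in the control and 6.93 in the RL culture of tumor 1, 8.01 and 8.10 in tumor 2, and 9.39 and 8.92 in tumor 3. The levels of the 3 tumors did not overlap, with tumor 3 highest and tumor 1 lowest, while control and RL cultures did. In processed intensities, Tnfrsf11b was 60.3 in the control and 39.9 in the RL culture of tumor 1, 137 and 141 in tumor 2, and 462 and 312 in tumor 3. The range of 2.09 between tumors was reached by 337 of 21721 genes (1.55%), and the order of the tumors was the same in the 4 alternatives that change the levels.

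With RL, the log2 ratio of Tnfrsf11b over control was −0.28, 0.09 and −0.47 in tumors 1, 2 and 3. The mean was −0.22 (SE 0.10, lower in 2 of 3 tumors, adjusted p = 0.718 from limma, 95% interval from −0.45 to 0.01), and 3.96% of all genes had a mean change at least as large. Repeated spots of like brightness had a median SD of 0.09, 0.08 and 0.07, which covers the noise within an array and not that between cultures. The change was −0.14 with a dye term (SE 0.07, adjusted p = 0.592 from limma). The processed intensities gave −0.38 (SE 0.15, adjusted p = 0.639 from limma). Without tumor 2 the change was −0.38 (SE 0.09, adjusted p = 0.00800 from limma), and over all alternatives the adjusted p ranged from 0.00800 to 1.00. Tumors 1 and 3 have the same dye order, so that without tumor 2 an effect of RL and one of the dyes cannot be told apart, and 1286 genes then passed the threshold.

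In the level of each tumor, the genes nearest to Tnfrsf11b were Tnfaip3, Nt5e and Has2, chosen after the values had been seen, at distances of 0.0861, 0.121 and 0.126, with 1 gene within 0.1. Tnfaip3 encodes A20, an inhibitor of NF-κB signaling, and its mean log2 levels were 10.58, 11.44 and 12.59 in tumors 1, 2 and 3. Its ratio of RL over control was 0.64, 0.16 and 0.24 in tumors 1, 2 and 3, furthest from 0 in tumor 1. The mean was 0.35 (adjusted p = 0.437 from limma and 0.0769 with a dye term). This mean was of opposite sign to that of Tnfrsf11b, and so the likeness holds for levels and not for ratios.

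Stromal cells can be a source of osteoprotegerin, and all 8 fibroblast markers were well above background in all 6 channels. Their median deviation from each gene's mean level was −0.16, −0.76 and 0.93 on the log2 scale in tumors 1, 2 and 3. Their summed processed intensity was 6545, 2789 and 14384 in the control cultures and 5414, 3004 and 13642 with RL, with Col1a2 the brightest spot in tumors 1 and 3 and Col1a1 in tumor 2. The collagen genes, Dcn and Thy1 were highest in tumor 3, as was Tnfrsf11b, but lowest in tumor 2, where Tnfrsf11b was above tumor 1. Pdgfrb, with log2 levels of 8.12, 8.21 and 9.60 in tumors 1, 2 and 3, and Lum, with 7.94, 8.41 and 8.74, had the order of the tumors that Tnfrsf11b had. For Pdgfrb this order was not kept in the processed intensities of the control cultures, with 159, 138 and 543. In the RL cultures they were 138, 151 and 475. Pdgfra was highest in tumor 2, with 7.87, 8.80 and 8.14. With RL the median log2 ratio of the list was −0.29, 0.13 and −0.05 in the 3 tumors and −0.05 on average, with 0 genes past the adjusted p of 0.05 by limma. The basal list also had this order of the tumors in its median deviation, with −0.72, 0.26 and 0.40. Among its genes, Krt14, with log2 levels of 14.87, 15.72 and 16.17, and the dim Myh11 had it too. Krt5, Trp63 and Acta2 were highest in tumor 2 and Oxtr in tumor 1. The part of fibroblast and basal markers in the level and ratio of Tnfrsf11b was not tested.

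The difference between the changes of ligand and decoy had no common sign in the 3 tumors. The log2 change of Tnfsf11 minus that of Tnfrsf11b was 0.33, −0.13 and 0.68 in tumors 1, 2 and 3. The mean was 0.29 ± 0.40 (SD, n = 3), with p = 0.5 in an exact two-sided sign-flip permutation test, which cannot give less than 0.25 with 3 tumors. This test could therefore not have shown a shift, and the value of tumor 1 includes the Tnfsf11 control spot that was not well above background. The processed intensities gave a mean of 0.81.

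Lgr4 was the only one of the 4 genes with a log2 ratio under 0 in each tumor. Its log2 level was 7.62 in the control and 7.59 in the RL culture of tumor 1, 8.21 and 7.89 in tumor 2, and 7.81 and 7.71 in tumor 3. The control cultures had a mean of 7.88 ± 0.30 (SD, n = 3) and the RL cultures of 7.73 ± 0.15, and the conditions overlapped. Tumor 2 was highest in both, and the range of 0.45 between tumors was reached by 28.0% of genes.

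The log2 ratio of Lgr4 over control was −0.03, −0.32 and −0.10 in tumors 1, 2 and 3, of which that of tumor 1 lay within the median SD of 0.09 of repeated spots. The mean was −0.15 (SE 0.08, adjusted p = 0.759 from limma, 95% interval from −0.33 to 0.03). The dye term gave −0.19 (SE 0.07, adjusted p = 0.315 from limma), and the adjusted p lay between 0.315 and 1.00 over all alternatives. The authors' normalized ratios have the opposite sign for Lgr4 in tumor 1. The processed intensities gave −0.23 and leaving out tumor 2 gave −0.07. Stt3a, Calr4 and Atp13a2 had the most similar ratios, with 64 genes within a distance of 0.1.

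The genes around the 4 were described in 8 lists with 92 distinct genes, of which 84 were tested. By limma 0 of the 84 genes passed the adjusted p of 0.05, and 20 had an unadjusted p under 0.05, as did 785 higher and 772 lower of the 21743 genes and transcripts tested. The rank product called 6, all of them higher, where it called 0.166% of all genes higher and 0.235% lower. In the fit with a dye term, 9 were higher and 2 lower, where 0.455% of all genes were higher and 0.598% lower. Of the 84 genes, 19 were higher and 12 lower in all 3 tumors, where 14.2% and 13.3% of all genes were. The median of the mean log2 changes was 0.02 over the 84 genes and −0.000548 over all genes tested. The genes of the NF-κB arm were already known to respond from earlier results of these data, so their counts are no independent support.

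**Figure D4:**
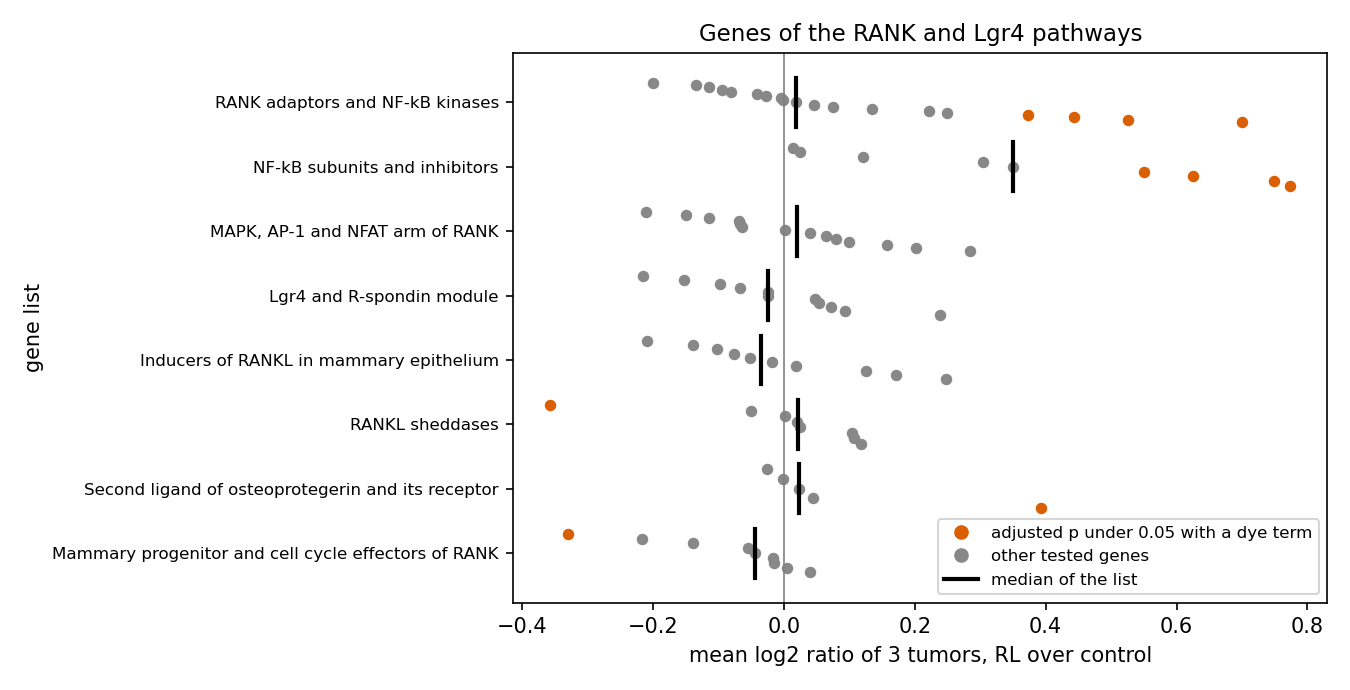
Mean log2 ratio of RL over control over the 3 tumors (x axis) of each tested gene in the 8 lists (y axis), with the median of each list as a black bar and the genes past an adjusted p of 0.05 by limma with a dye term in orange. The median of the NF-κB subunits and inhibitors is 0.35, and those of the other lists lie between −0.04 and 0.02.

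Among the adaptors and kinases that RANK uses to reach NF-κB, 19 of 20 genes were tested, and the dim Gab2 was not. By the dye term 4 were higher and 0 lower, namely Traf1, Traf2, Traf3 and Birc3, while the median of the list was 0.02. Traf3, an adaptor that holds back the non-canonical NF-κB pathway, had a log2 ratio of 0.43, 0.37 and 0.32 in tumors 1, 2 and 3 (mean 0.37, SE 0.07, adjusted p = 0.198 from limma and 0.00803 with a dye term). Traf2, which joins TNF receptors to cellular IAPs, had 0.84, 0.18 and 0.56 (mean 0.53, adjusted p = 0.268, and 0.00230 with a dye term). The mean over the probes of Traf2, in place of its brightest probe, gave 0.36. The ratios of Traf3 thus varied little between tumors, whereas those of Traf1, with 1.14, 0.31 and 0.65, were furthest from 0 in tumor 1. Traf6, the adaptor most closely tied to RANK in osteoclasts, had a mean of −0.03, and the NF-κB-inducing kinase Map3k14 had 0.61, 0.21 and −0.15; Traf6 and Map3k14 were chosen after their values had been seen.

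Among the NF-κB subunits and inhibitors, 9 of 10 genes were tested, and the median log2 change was 0.35, or 0.18 to 0.44 over the alternatives. The median was 0.64, 0.16 and 0.22 in tumors 1, 2 and 3. With a dye term 4 were higher, Nfkb2, Relb, Nfkbia and Nfkbie, and 0 lower. Without tumor 1 and without a dye term, the adjusted p of these 4 genes was 0.418 to 1.00 in limma, and the change of Relb was 0.25 against 0.55. Nfkbia and Nfkbie encode inhibitors that hold NF-κB in the cytoplasm and are themselves induced by it. Nfkbie had a log2 ratio of 1.31, 0.58 and 0.36 in tumors 1, 2 and 3, with an adjusted p of 0.229 from limma and of 0.000965 with a dye term. Nfkbia, with 1.47, 0.47 and 0.38, was likewise furthest from 0 in tumor 1, while Tnfsf11, Tnfrsf11a, Tnfrsf11b and Lgr4 did not pass the test in either fit.

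The promoters of Nfkbia and Nfkbie, the genes of these lists with the largest ratios, are printed beside those of Tnfsf11 and Tnfrsf11a, to show the sequence before the start of genes that passed the test with a dye term and of the ligand and receptor that did not pass the test. They are the 250 bases before the start of each gene in RefSeq, build GRCm38.p6, and the promoter of Tnfrsf11b was not among those available. The κB motif searched was GGG, any 3 bases and then TTCC, on both strands and as the only motif, and capitals mark its matches. Of the 32851 promoters in the table, 4.65% hold a match within these 250 bases.
Nfkbia promoter, chr12:55492648-55492897, minus strand: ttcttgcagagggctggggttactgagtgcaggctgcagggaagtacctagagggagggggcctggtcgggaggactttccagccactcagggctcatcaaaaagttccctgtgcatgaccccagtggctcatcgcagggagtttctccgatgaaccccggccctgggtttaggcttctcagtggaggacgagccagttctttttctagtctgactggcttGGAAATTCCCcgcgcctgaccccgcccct
Nfkbie promoter, chr17:45555450-45555699, plus strand: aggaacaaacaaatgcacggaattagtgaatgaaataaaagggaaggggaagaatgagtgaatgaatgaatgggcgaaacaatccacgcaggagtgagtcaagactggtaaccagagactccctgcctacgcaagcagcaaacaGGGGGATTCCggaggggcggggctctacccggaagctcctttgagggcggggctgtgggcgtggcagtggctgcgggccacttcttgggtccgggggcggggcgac
Tnfsf11 promoter, chr14:78308044-78308293, minus strand: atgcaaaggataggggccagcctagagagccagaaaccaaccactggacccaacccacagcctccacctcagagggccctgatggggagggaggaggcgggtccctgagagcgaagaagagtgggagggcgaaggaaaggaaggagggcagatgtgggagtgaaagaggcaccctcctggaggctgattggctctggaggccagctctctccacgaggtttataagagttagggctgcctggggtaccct
Tnfrsf11a promoter, chr1:105780473-105780722, plus strand: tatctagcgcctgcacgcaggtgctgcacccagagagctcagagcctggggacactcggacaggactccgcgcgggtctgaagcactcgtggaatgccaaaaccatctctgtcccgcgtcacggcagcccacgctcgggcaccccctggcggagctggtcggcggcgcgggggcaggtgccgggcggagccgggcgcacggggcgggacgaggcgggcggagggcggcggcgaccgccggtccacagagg
Nfkbia has 1 match, from 29 to 20 bases before the start on the reverse strand, and Nfkbie has 1, from 106 to 97 bases before it. Tnfsf11, Tnfrsf11a and Lgr4 have 0 matches, which says only that these letters are absent from the 250 bases. A match is a stretch of letters, and binding was not measured.

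In the MAPK, AP-1 and NFAT arm of RANK, all 14 genes were tested, with 0 called in either direction by limma, with or without a dye term, and a median log2 change of 0.02. Of these genes, 2 were higher and 2 lower in all 3 tumors, where 14.2% and 13.3% of all genes tested were. Fos, an AP-1 subunit that RANK induces in osteoclast precursors, had ratios of −0.08, −0.19 and −0.18, and the kinase Mapk9 had −0.17, −0.03 and −0.14. Nfatc1, the main transcription factor of osteoclast formation, was well above background in these cultures and had a mean of 0.10 (adjusted p = 0.826, chosen after its values had been seen). None of these genes passed the test.

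In the Lgr4 and R-spondin module, 11 of 15 genes were tested. Lgr5, Rspo2, Rspo4 and the WNT target Axin2 were too dim. The median log2 change was −0.02, and 0 genes were called in either direction by limma, with or without a dye term. Rspo1, a ligand of Lgr4, had ratios of 0.25, 0.21 and 0.25 in tumors 1, 2 and 3 (mean 0.24, SE 0.07, adjusted p = 0.451 from limma and 0.168 with a dye term). The mean of Rspo1 depended on the processing, with 0.48 in the processed intensities and 0.36 in the authors' normalized ratios. Its log2 level was 6.74, 8.91 and 7.10, so that Rspo1, like the transcript of RANKL, was highest in tumor 2. Rspo3, the other R-spondin tested and chosen after its values had been seen, had 6.80, 6.46 and 7.51, lowest in tumor 2. The ratios of Rspo3 were −0.41, −0.16 and 0.11. Rnf43, a ubiquitin ligase that R-spondins and Lgr receptors restrain, had ratios of −0.31, −0.10 and −0.24 (mean −0.21, adjusted p = 0.560).

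Of the 12 genes that induce RANKL in mammary epithelium or take part in it, 10 were tested, and Pgr and Calca were too dim. None was called by limma, with or without a dye term, and the median log2 change was −0.04. Vdr, the vitamin D receptor, had ratios of −0.29, −0.14 and −0.20 in tumors 1, 2 and 3, and Pthlh, which encodes PTHrP, had 0.68, 0.03 and 0.03. Without tumor 1, the mean of Pthlh was 0.03, against 0.25 with it. Wnt4, a target of progesterone in the gland, was chosen after its values had been seen. It had a log2 level of 7.05, 8.22 and 9.18 in tumors 1, 2 and 3, an order unlike that of Tnfsf11. Vdr, with 13.04, 13.37 and 12.29, and Jak2, also chosen in this way, with 10.54, 10.63 and 10.40, were highest in tumor 2. Both were lowest in tumor 3, whereas Tnfsf11 was lowest in tumor 1. The other tested genes of the list were not highest in tumor 2.

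All 8 genes that release RANKL from the membrane or inhibit its release were tested, with a median log2 change of 0.02. The fit with a dye term called 0 higher and 1 lower. That gene was Timp3, which inhibits metalloproteases including Adam17, with ratios of −0.40, −0.36 and −0.31 in tumors 1, 2 and 3 (mean −0.36, SE 0.07, adjusted p = 0.210 from limma and 0.0115 with a dye term). Timp3 did not pass the test without the dye term. Mmp7 had 0.07, 0.15 and 0.14 (mean 0.12, adjusted p = 0.782). Mmp3, chosen after its values had been seen, had a mean ratio of 0.00173 but a log2 level of 9.77, 13.75 and 12.19 in tumors 1, 2 and 3.

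Osteoprotegerin also binds TRAIL, encoded by Tnfsf10. The list of TRAIL, its receptor and 3 other genes of death receptor signaling was tested in full, with a median log2 change of 0.02, and with a dye term 1 of the 5 genes was higher and 0 lower. That gene was the death receptor Fas, with ratios of 0.34, 0.20 and 0.65 in tumors 1, 2 and 3 (mean 0.39, SE 0.09, adjusted p = 0.327 from limma and 0.0256 with a dye term). Tnfsf10 and its receptor Tnfrsf10b, chosen after their values had been seen, had means of −0.00202 and 0.04. Fas was also highest in tumor 2 in level, with 10.53 against 8.89 in tumor 1, and tumor 3 lay near tumor 1.

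Among the 9 progenitor and cell cycle genes that RANK acts on in the gland, all tested, the median log2 change was −0.04. By the same fit 0 were higher and 1 was lower, Id2, with ratios of −0.52, −0.28 and −0.19 in tumors 1, 2 and 3 (mean −0.33, SE 0.08, adjusted p = 0.369 from limma and 0.0451 with a dye term). Id2 encodes an inhibitor of basic helix-loop-helix factors needed for alveolar growth. Kit, a receptor kinase of luminal progenitors, had −0.09, −0.31 and −0.25 (mean −0.22, adjusted p = 0.560). Ccnd1, the cyclin that RANKL raises in mammary epithelium, was chosen after its values had been seen and had a mean of 0.00489. Of the 9 genes, 3 were lower and 0 higher in all 3 tumors, where 13.3% and 14.2% of all genes tested were.

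The remaining markers describe what the cultures held. All 7 luminal epithelial markers were well above background in all channels, led by Krt18, and their median log2 ratio with RL was 0.17, −0.18 and −0.04 in tumors 1, 2 and 3. Of the osteoclast genes, Acp5, Ctsk and Ocstamp were well above background in all 6 channels, whereas Calcr was so in none. Of the 5 endothelial markers 2 were well above background in all 6 channels and Tek in none, and of the 8 myeloid markers 6 were so in all. None of the tested markers passed the adjusted p of 0.05 in limma. Luminal and fibroblast markers and all basal markers but Myh11 were thus well above background in each culture, and B cell markers in none.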

How the data were processed

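Both RNAs of a tumor were read on 1 array. The authors deposited, for each dye, median spot and background intensities from Agilent Feature Extraction 10.7.3.1, and intensities that this software had background-subtracted, detrended and dye-normalized. Their deposited log10 ratios set Cy5 over Cy3 in the latter. The authors also deposited normalized log2 ratios, whose scale, centring and direction the file does not state. Their medians were 0.00244, −0.0011 and 0.00069 in tumors 1, 2 and 3, and they correlated with the Cy5 over Cy3 ratios computed here at r = 0.881, 0.874 and 0.880 across spots, which are not independent, so their direction is Cy5 over Cy3. They were read as the base 2 logarithms that the methods name, centred near 0. Their slopes on these ratios were 1.40, 1.59 and 1.50, and their mean for Nfkbia was 0.78 against 0.77 here. These values do not settle the scale, since the slopes are not 1 and Nfkbia is 1 gene.

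In R 4.3.3 with limma 3.58.1, median intensities were corrected with normexp (offset 50), and control spots were then dropped. Ratios were normalized by loess on intensity, loess on row and column (span 0.1) and Aquantile. Outlier spots took part in these steps and were dropped after them. Ratios were turned to RL over control, which pairs the cultures of a tumor as the labels do. Accessions matched the RefSeq table of GRCm38.p6 for 28026 of 55681 probes. A gene was read by its brightest probe among those well above background in the 3 control or the 3 RL channels, and lmFit with eBayes (residual degrees of freedom 2, prior 6.91) and Benjamini-Hochberg adjustment tested RL. The fit with a dye term has 1 residual degree of freedom, from the difference between tumors 1 and 3, and 22.3 prior degrees of freedom. P-values rest on 3 mice. All arrays lay on 1 slide and were scanned once. Between tumors 1 and 3, r of the ratios across genes was 0.452, and it was −0.110 and −0.105 between these and tumor 2. The rank product used 1000 permutations (seed 1). The series analyzed is not the one named in the study's data availability statement. Repeated spots were those of probes with at least 5 spots within 1 log2 unit of the gene's level. The programs were tested on simulated data.

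The genes named were the 4 genes, those of each list past the threshold or, among genes of 1 sign in all tumors, the 2 with the largest mean change, and for Tnfsf11, Tnfrsf11a and Lgr4 the 3 genes with the nearest ratios. Genes outside this rule, among them those called with a dye term only and the cell type markers, are named as such or by their counts. The 4 genes and the lists were chosen with earlier results of these data known.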

Additional observations from a re-analysis of the deposited data

How the results depend on the processing

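Over 19 alternatives, the log2 change of the 4 genes kept its sign and its side of the threshold in 73 values, reversed in 1 and passed the threshold in 1. Centering on the median gave −0.10 for Tnfrsf11a (0.01 relative to all genes). Leaving out each tumor in turn gave 0.02 to 0.12 for Tnfrsf11a, 0.01 to 0.13 for Tnfsf11, −0.38 to −0.10 for Tnfrsf11b, with an adjusted p of 0.00800 from limma without tumor 2, and −0.21 to −0.07 for Lgr4. The change of Tnfsf11 minus that of Tnfrsf11b was 0.10 to 0.50 in this way, and 0.10 to 0.81 over the 18 alternatives that gave it. A probe well above background in all 6 channels left Tnfsf11 without a value, and each gene has 1 probe, so single probes gave no further values.

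The count of genes past the threshold, 6 with 1 higher and 5 lower, was 229 with a dye term, 87 by rank product, 40 with an intensity trend, 19 with robust moderation, 18 without background correction (6 higher, 12 lower), 17 with an offset of 10 (6 higher, 11 lower), 3 with dim probes kept, and 0 with processed intensities, with median centering or without pairing by tumor. It was 2 to 1286 with a tumor left out, the latter without tumor 2. The cause was not tested. Of the values of 19 list genes, 331 kept sign and side of the threshold, 29 passed it, and Mmp7 reversed to −5.97e-05 with median centering. The genes called with a dye term reached an adjusted p of 1.00 without pairing. Most list medians near 0 changed sign, with −0.09 to 0.04 for the adaptors and kinases, −0.12 to 0.03 for the Lgr4 module and −0.11 to 0.09 for the TRAIL list. Those of the inducers, the RANKL release genes and the MAPK arm also did, and that of the progenitor list did not. Their lowest values came with median centering, where all genes had a median of −0.11. The ranges of levels between tumors were 2.62 to 5.21 for Tnfsf11 and 2.09 to 2.95 for Tnfrsf11b. Low signal over background limits Tnfsf11 in tumors 1 and 3.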
